A study of Mus musculus with 2 samples.

Results

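The FOS and JUN family of transcription factor genes was examined in cultured mouse myeloid progenitors. Its 7 members, Fos, Fosb, Fosl1, Fosl2, Jun, Junb and Jund, were taken by exact match of the gene symbol, and all 7 were found among 23988 genes. Bone marrow cells from C57BL/6 mice were stripped of lineage-positive cells and kept for 7 days in interleukin 3, stem cell factor and interleukin 6, with no other treatment. The labels call them untransformed myeloid progenitors (MP) and give 1 group of 2 RNA-seq libraries, here replicate 1 and replicate 2. The series title concerns leukaemia cells with HOXA9 and MEIS1, which were not analysed here. The labels give neither the age of the mice nor whether cells for each library were cultured or taken from mice separately. The spread between libraries may therefore be technical.

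FOS and JUN proteins carry a basic region that contacts DNA and a leucine zipper that joins them in pairs. A pair of one FOS and one JUN protein, or of 2 JUN proteins, forms the transcription factor AP-1, whereas FOS proteins do not pair stably with each other. Several members are immediate early genes, switched on within minutes by growth factors, cytokines or stress without new protein synthesis, and their messenger RNAs are short-lived. In blood cell formation, AP-1 proteins are known for roles in monocyte and macrophage differentiation, and JUNB is known as a brake on myeloid proliferation.

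The promoters of the 3 members with the largest ratios between the libraries (Fosb, Fos and Junb), and that of Jun, are shown because they hold matches to elements known to pass signals to these genes. Each stretch is 120 bases long, runs 5′ to 3′ on the gene's strand, ends just before the earliest start in RefSeq or GENCODE (for Fosb, 7 bases before the RefSeq start), and comes from RefSeq on GRCm38.p6. The positions are chr12:85473770-85473889 on the plus strand for Fos, and on the minus strand chr7:19310052-19310171 for Fosb, chr8:84978749-84978868 for Junb and chr4:95052223-95052342 for Jun. Capitals mark TGACG, which is the core of the element that responds to cyclic AMP (CRE). They also mark, in Fos, TATAAA, the letters of the TATA box, and, in Jun, TGACATCA, known as a variant AP-1 site.
Fos: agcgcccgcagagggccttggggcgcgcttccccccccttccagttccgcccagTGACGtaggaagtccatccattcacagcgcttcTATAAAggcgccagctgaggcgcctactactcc
Fosb: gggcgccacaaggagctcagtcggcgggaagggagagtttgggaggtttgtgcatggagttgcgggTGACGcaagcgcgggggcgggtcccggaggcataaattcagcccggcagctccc
Junb: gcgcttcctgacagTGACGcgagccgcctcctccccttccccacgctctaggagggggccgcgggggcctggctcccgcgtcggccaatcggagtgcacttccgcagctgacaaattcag
Jun: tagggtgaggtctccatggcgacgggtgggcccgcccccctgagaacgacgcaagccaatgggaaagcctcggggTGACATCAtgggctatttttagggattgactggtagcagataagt

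Promoter windows of 300 bases, 250 before the start and 50 from it on, were found for 6 members, and Fosl1 had no entry. Both strands were searched for these motifs and for the full CRE, spelled TGACGTCA, which contains the shorter core. The search also covered the common AP-1 site, spelled TGANTCA, and the CArG box bound by serum response factor. TGACG occurred in the windows of Fos (2 matches), Fosb and Junb, and in 20.8% of all 32851 windows. TGACATCA occurred in that of Jun and in 3.62% of all windows. TATAAA occurred in those of Fos and Junb and in 13.6% of all. In Fos it began 33 bases before the start, and in Junb at the RefSeq start itself, 30 bases before the nearest GENCODE start, so it is not in the stretch shown. The full CRE (1.79% of all windows), the common AP-1 site (7.81%) and the CArG box (1.63%) had no match in the 6 windows. Sites more than 250 bases before the start lay outside the windows and were not searched. This absence therefore does not cover the whole promoter. Fosl2 and Jund had no match to any of these motifs, but their RefSeq starts lie 299 bases (Fosl2) and 1210 bases (Jund) from the nearest GENCODE start. These are matches of letters in the window and show no binding.

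The 3′ untranslated regions of all 7 members held the pentamer ATTTA, the core of AU-rich elements that speed messenger RNA decay, as did 66.0% of 20532 mouse genes. Fos had 4.91 ATTTA per kb (4 in 815 bases), Junb 4.12 (2 in 485) and Jun 3.24 (4 in 1233), against a median of 1.27 over all genes. Fosl2 (1.72 per kb), Jund (1.88) and Fosl1 (1.57) lay nearer to that median, and Fosb, at 0.466, lay below it. Jund, Fosl1 and Fosb had 1 match each, so such densities turn on single matches. The longer element TTATTTATT occurred once in Fos and once in Fosl2, and in 7.73% of all genes. The Fosl2 region has 4653 bases, against a median of 967 over all genes, which leaves more room for a match. These 2 sites are shown, from GENCODE vM21 transcripts, with the element in capitals.
Fos site: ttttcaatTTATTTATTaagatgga
Fosl2 site: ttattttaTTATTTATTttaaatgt

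The labelled cell type was checked against marker genes. All 8 myeloid progenitor and primary granule markers reached 1 RPKM (reads per kilobase of gene, scaled to library size) in both libraries, with Mpo at 1587 and 1164 RPKM. T cell and erythroid markers had none of 5 each at 1 RPKM in both, and B cell markers had 1 of 5, Cd79b. Monocyte and macrophage markers were detected in 10 of 10 and basophil markers in 4 of 4. The effective library sizes were 29941063 reads in replicate 1 and 28793666 in replicate 2, which may include a normalisation factor. They were derived from genes with equal reads in both libraries and from matches to GENCODE vM21 transcript lengths. An exact permutation of signs over 2 libraries allows no p smaller than 0.5, so no test was run and differences between the libraries have no replicate check.

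The deposited RPKM of a member cannot be compared with that of another member as they stand, because of the lengths behind them. For 6 of the 7, the length lay within 31 bases of a transcript of the gene listed 1 row above. In each of these rows it lay nearer to that transcript than to any of the gene itself. The bound of 31 bases comes from these members, and only Jun and Junb lay within the 5 bases used below. Once whole reads are required, the values of a row fix the gene length used up to a whole multiple, and the smallest was taken. The length in the Fosb row was 2093 bases, 15 from the Fos transcript of 2108 bases, whereas the longest coding Fosb transcript has 3782. The Fosl1 row held 3776 bases, 6 from Fosb. The Junb row held 3187 bases, 2 from Jun (3189), and the Jund row 1840, 31 from Junb (1809). The Fos row (1422 bases) lay 8 bases from a transcript of Fopnl and the Jun row (1103 bases) 2 bases from one of Jtb, the genes above them. The Fosl2 row allowed 1705 bases or a whole multiple, and 1705 is 159 bases from Fosl1 but 2 from a Fosl2 transcript with a retained intron. Within 200 rows on either side of Fosb, 38 of 212 row lengths matched the gene above within 5 bases and 1 matched the gene itself. Around Junb the counts were 46 of 224 and 1. The plain ratio of a gene's RPKM between the libraries does not depend on this length. The log2 ratio of RPKM + 1 and the limits of 1 RPKM, used below also for shares over all genes, do depend on it. Levels are therefore given as deposited and as length-adjusted RPKM, in which the reads were divided by the gene's own longest coding transcript in GENCODE vM21, a choice made after the data were seen.

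**Figure D1:**
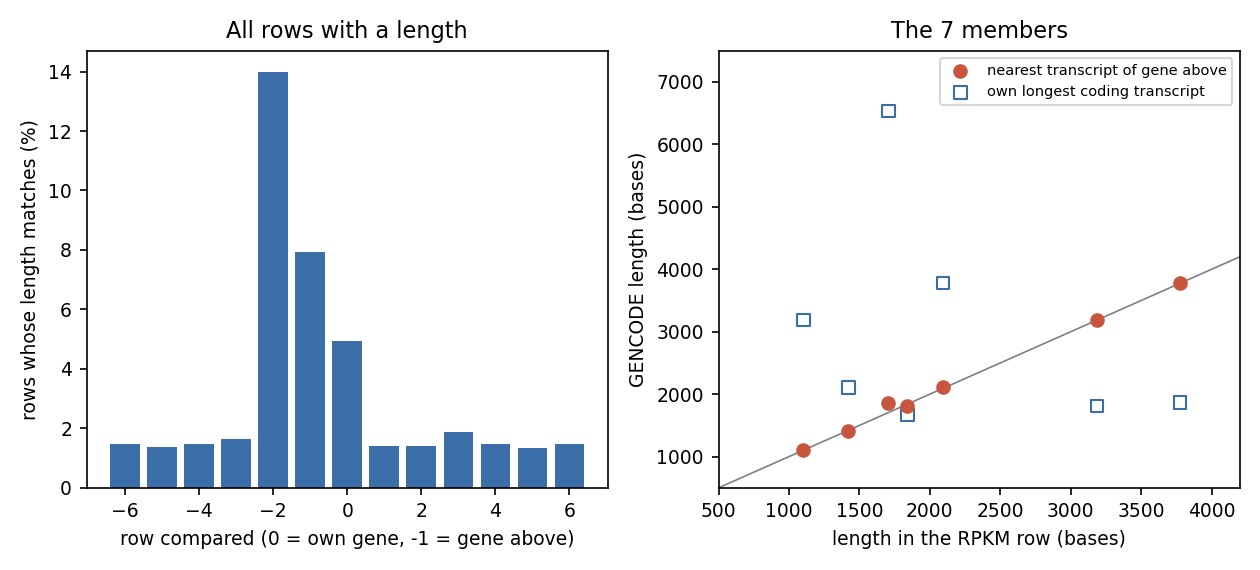
Left, share of table rows (y axis, percent) whose length lay within 5 bases of a GENCODE transcript of the gene at each row offset (x axis); right, for the 7 members, the length in the RPKM row (x axis, bases) against the nearest transcript of the gene above (filled) and the own longest coding transcript (open squares), with the line of equality. The filled points lie within 31 bases of the line except Fosl2, 159 bases off, and the share is highest at offsets -2, -1 and 0.

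The FOS genes supply the partner that has to pair with a JUN protein. In replicate 1 the deposited level of Fos, the founding member and an immediate early gene, was 18.0 RPKM, and in replicate 2 it was 91.0, from 767 and 3727 reads. Length-adjusted, the values were 12.2 and 61.4 RPKM. Replicate 2 was 5.05-fold higher, with a 95% interval of 4.67 to 5.47 that, as for each interval here, covers counting error only. Reads without molecular identifiers are not independent molecules.

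Fosb, whose products include the long-lived splice form known as delta FosB, stood at 0.255 and 7.38 RPKM as deposited and at 0.141 and 4.09 length-adjusted. It was near the floor in replicate 1, with 16 reads, and had 445 in replicate 2. The ratio of 28.9 was the largest of the family, with an interval of 17.6 to 51.0. It was 5.72 times that of Fos (3.46 to 10.2).

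Fosl2, which encodes FRA2, stood at 21.8 and 85.8 RPKM as deposited and at 5.69 and 22.4 length-adjusted. At least 1113 and 4212 reads lay behind these values, and the length-adjusted levels would be whole multiples higher if the row length were a multiple of 1705 bases. The ratio was 3.94 (3.68 to 4.21). Fosl1, which encodes FRA1, stayed low in both libraries, at 0.230 and 0.248 RPKM as deposited and 0.466 and 0.503 length-adjusted. Its 26 and 27 reads gave a ratio of 1.08 with an interval of 0.607 to 1.93, so a difference of less than that was not detectable at this depth.

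The JUN genes encode the proteins that can pair among themselves or with FOS. Jun, which JNK kinases activate through its protein, stood at 42.2 and 98.3 RPKM as deposited and at 14.6 and 34.0 length-adjusted, from 1394 and 3123 reads. Its ratio was 2.33 (2.19 to 2.48). Junb stood at 17.3 and 82.7 RPKM as deposited and at 30.5 and 146 length-adjusted, from 1654 and 7587 reads. Its ratio of 4.77 (4.52 to 5.03) was close to that of Fos, and the quotient of the Fos ratio over the Junb ratio was 1.06 (0.963 to 1.17).

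Jund, the member known for steady expression in resting cells, stood at 72.9 and 113 RPKM as deposited and at 80.5 and 124 length-adjusted. Its 4018 and 5973 reads gave a ratio of 1.55 (1.48 to 1.61), the smallest among the 5 members detected in both libraries. The Junb ratio was 3.09 times that of Jund (2.89 to 3.30). Of the 7 members, 6 were thus higher in replicate 2 beyond counting error, from 1.55-fold for Jund to 28.9-fold for Fosb, and the interval of Fosl1 included 1.

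**Figure D2:**
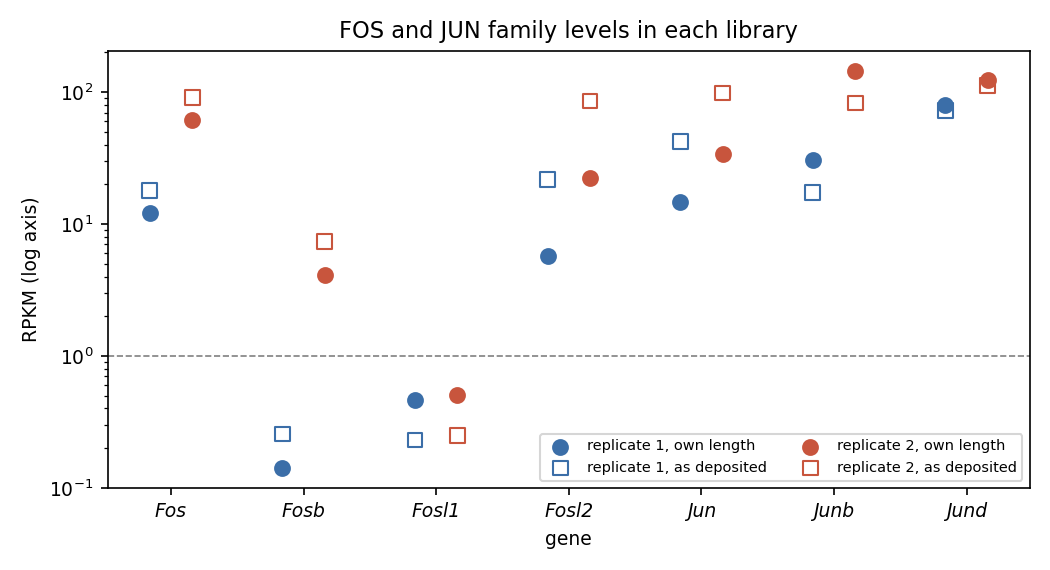
RPKM (y axis, log scale) of each member (x axis) in replicate 1 (blue) and replicate 2 (red), length-adjusted (filled circles) and as deposited (open squares); the dashed line marks 1 RPKM. Replicate 2 lies above replicate 1 for each gene, by little for Fosl1 and Jund. In replicate 2 the length adjustment raises Junb from 82.7 to 146 RPKM. It lowers Fosl2 from 85.8 to 22.4 with the smallest read numbers.

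Of the 7 members, 5 were at 1 RPKM or more in both libraries, as were 43.5% of all genes. Fosb passed in replicate 2 alone and Fosl1 in neither, and the same 5 passed length-adjusted. In order of mean length-adjusted RPKM over the 2 libraries, Jund (102) and Junb (88.1) led, followed by Fos (36.8), Jun (24.3) and Fosl2 (14.0), with Fosb (2.11) and Fosl1 (0.484) far below. These levels take the smallest read numbers for Fosl2. With a whole multiple of them, its place in the order and its pairs below could change. A pair was taken to differ beyond the spread when the difference in log2(RPKM + 1) had the same sign in both libraries and its mean exceeded 2 SD. On length-adjusted values 16 of 21 pairs did. Among neighbours in the order, Fos lay below Junb, with a difference of -1.25 ± 0.02 (SD, n = 2) on that log2 scale. Fosb lay below Fosl2, with a difference of -2.38 ± 0.25 (SD, n = 2). Jund and Junb, Fos and Jun, Jun and Fosl2, and Fosb and Fosl1 did not differ beyond the spread. Outside the neighbours, Fos and Jund did not either. On deposited values 10 of 21 pairs passed, each of them between Fosb or Fosl1 and one of the 5 higher members.

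The make-up of the family messenger RNA differed between the libraries. The length-adjusted values below take the smallest read numbers for Fosl2. With a whole multiple of them, the shares, the FOS sum and its ratio to the JUN sum would change. By length-adjusted RPKM, Jund made up 55.9% of the family total in replicate 1 and 31.7% in replicate 2, and Junb 21.2% and 37.1%. Junb was thus the second of the family in replicate 1 and the first in replicate 2, an order that deposited values do not give. Fos made up 8.44% and 15.6%, Jun 10.1% and 8.67%, and Fosl2 3.95% and 5.70%. The 4 FOS genes summed to 18.4 and 88.4 RPKM, or 12.8% and 22.5% of the family, and the 3 JUN genes to 126 and 304 RPKM. The log2 ratio of the FOS sum to the JUN sum was -2.77 in replicate 1 and -1.78 in replicate 2 (mean -2.27 ± 0.70 SD, n = 2), a mean beyond 2 SD. It was -1.72 and -0.67 on deposited values (mean -1.19 ± 0.74 SD, n = 2), a mean within 2 SD of 0.

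Across the table, 5.3% of 10896 genes with a mean of 1 RPKM or more lay 2-fold or more above replicate 1 in replicate 2, and 0.734% at least 2-fold lower, on the log2(RPKM + 1) scale, which understates differences of low genes. Of the 6 members with such a mean, 5 were at least 2-fold higher (Fosb, Fos, Junb, Fosl2 and Jun) and none lower. Fosb reached that mean only through replicate 2, where it was high. Of the 5 members at 1 RPKM or more in both libraries, 4 were at least 2-fold higher, as were 4.07% of 10445 such genes, and none was lower, against 0.613% of them, a filter added after the data were seen. The median log2 ratio of the 6, Fosb included, was 2.06, against -0.05 over all genes tested. For the 5 members at 1 RPKM or more in both libraries it was 1.93. A log2 ratio as high as that of Fosb (2.74) was reached by 0.349% of the genes, Fosb included. That value depends on the scale for so low a gene: it was 4.40 with a pseudocount of 0.1 RPKM and 2.16 with own lengths, below those of Fos (2.25) and Junb (2.22) on such lengths. For Fos (2.27) the share was 0.688%, for Junb (2.19) 0.789%, for Fosl2 (1.93) 1.13%, for Jun (1.20) 3.79% and for Jund (0.62) 10.6%. These shares describe 2 libraries and are not a test.

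**Figure D3:**
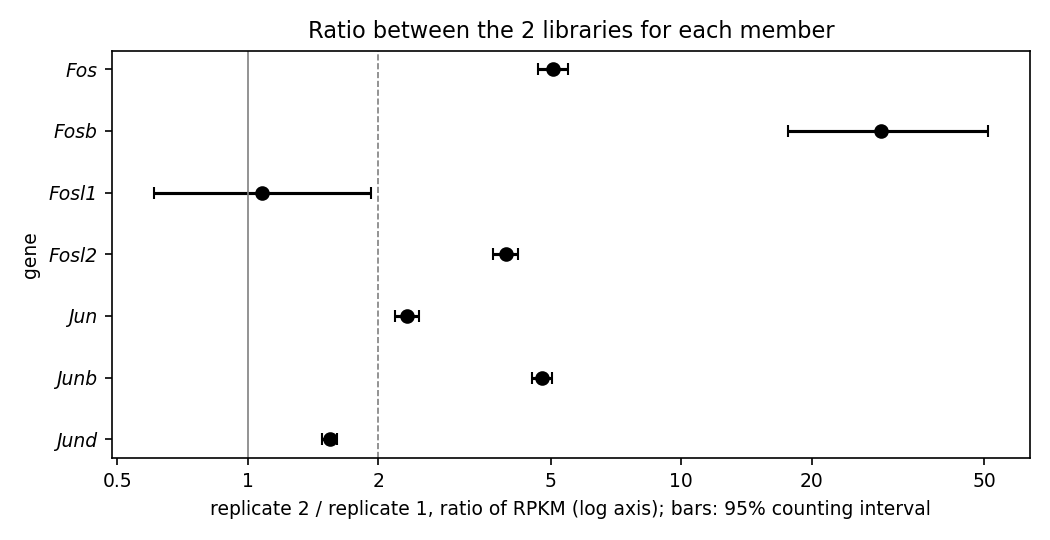
Ratio of RPKM, replicate 2 over replicate 1 (x axis, log scale), for each member (y axis), with bars for the 95% counting interval; the solid line marks 1 and the dashed line 2. Fosb, Fos, Junb, Fosl2 and Jun lie above 2, Jund at 1.55, and the Fosl1 interval spans 1.

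Other immediate early genes, which the same signals induce, were mostly higher in replicate 2 as well. Of 15 with a mean of 1 RPKM or more, 8 were at least 2-fold higher and 2 at least 2-fold lower, with a median log2 ratio of 1.42. The shares over all genes with such a mean were 5.3% and 0.734%. Egr3 and Nr4a1 passed the mean only through replicate 2 and Cyr61 only through replicate 1, and all of them count in the median. Of the 12 at 1 RPKM or more in both libraries, 6 were higher and 1 lower by that measure, beside 4.07% and 0.613% of all such genes. Egr1, a zinc finger factor induced with Fos by serum response factor, stood at 7.06 and 106 RPKM, and Egr2 at 1.94 and 31.4. Ier3 stood at 48.5 and 132 RPKM and Klf6 at 78.9 and 146. The 2 lower genes, named after their values were seen, were Gadd45b, at 56.3 and 27.6 RPKM, and Cyr61, at 1.75 and 0.325. The direction was therefore not shared by the whole list.

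Textbook target genes of AP-1 included 9 of 15 at least 2-fold higher in replicate 2 and none at least 2-fold lower, with a median log2 ratio of 1.26. Among all genes with a mean of 1 RPKM or more, 5.3% were higher and 0.734% lower by that measure. Ptgs2, Timp1 and Ccnd1 passed the mean only through replicate 2, where they were high, and count in the median. Of the 12 at 1 RPKM or more in both libraries 6 were higher, beside 4.07% of all such genes. The matrix metalloproteinase genes Mmp12 (macrophage elastase) and Mmp13 (collagenase 3) stood at 101 and 525 RPKM, and at 1.66 and 24.9. Spp1 (osteopontin) stood at 153 and 279 RPKM, below 2-fold. Plaur, the urokinase receptor gene, stood at 104 and 115. Several of these genes are also expressed by macrophages.

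Genes that act beside or before the family in the pathway were described in the same way. Of 11 other basic leucine zipper genes with a mean of 1 RPKM or more, whose products can pair with FOS or JUN, 3 were at least 2-fold higher and none lower, and the median log2 ratio was -0.00. Over all genes 5.3% were higher, and the difference from the family was not tested. The 3 were Maf (2.90 and 13.2 RPKM), Atf3 (43.5 and 129) and Maff (5.75 and 13.2), the last named after its values were seen. Atf4, a factor of the stress response, stood at 117 and 104 RPKM, and Atf2, a partner of JUN at CRE sites, at 31.6 and 25.4.

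None of 14 kinase genes upstream of FOS and JUN with a mean of 1 RPKM or more passed 2-fold on the log2(RPKM + 1) scale, and their median log2 ratio was 0.11. Rps6ka2, which encodes a kinase of the RSK family, stood at 2.11 and 4.48 RPKM, a plain ratio of 2.13 that this scale shrinks, and was named after its values were seen. Mapk3, which encodes ERK1, stood at 185 and 216 RPKM, Mapk14 (p38 alpha) at 87.7 and 97.8, Rps6ka1 (RSK1) at 479 and 438, and Map2k1 (MEK1) at 32.2 and 47.7. Map3k1, which encodes a kinase that starts the JNK cascade, stood at 25.4 and 45.0. Of 15 genes for factors that bind or coactivate the Fos promoter, 1 was at least 2-fold higher, Elk3 (3.08 and 7.73 RPKM), and the median log2 ratio was 0.12. The shares over all genes with a mean of 1 RPKM or more were 5.3% higher and 0.734% lower. Creb1, which encodes the CRE-binding protein CREB, stood at 111 and 118 RPKM, Atf1 at 288 and 231, and Crem at 4.60 and 8.20.

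Among 10 genes that control decay of FOS and JUN messenger RNA or protein, 2 passed 2-fold, both towards replicate 2, with a median log2 ratio of -0.01, beside the same 5.3% of all genes. Both encode proteins of the tristetraprolin family, which bind AU-rich elements like those shown above. Zfp36 (tristetraprolin) stood at 14.0 and 46.6 RPKM and Zfp36l1 at 8.52 and 52.4. Their relative Zfp36l2 stood at 70.3 and 83.7. Hnrnpd, which encodes the AU-rich element binder AUF1, stood at 121 and 90.9, and Itch, a ubiquitin ligase that targets JUN proteins, at 40.0 and 53.2.

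**Figure D4:**
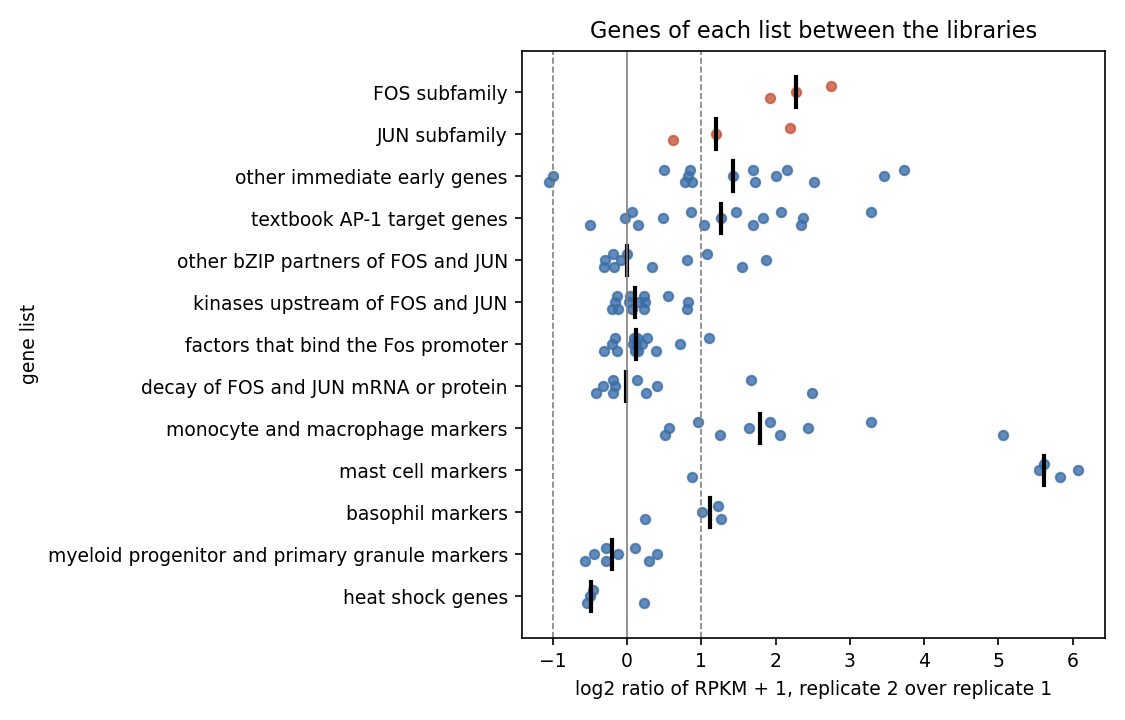
Log2 ratio of RPKM + 1, replicate 2 over replicate 1 (x axis), of each gene with a mean of 1 RPKM or more in 13 lists (y axis), members in red, with a black bar at each list's median; dashed lines mark 2-fold. Members, other immediate early genes and AP-1 targets lie mostly to the right, and kinases and promoter-binding factors near 0.

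Markers of monocytes and macrophages, mast cells and basophils were mostly higher in replicate 2. B cell and erythroid markers, with 1 and 2 genes tested, had none at 2-fold on the log2(RPKM + 1) scale. No T cell marker reached the mean needed to be tested. Monocyte and macrophage markers summed to 1332 RPKM in replicate 1 and 3989 in replicate 2. Of these 10 genes, 7 were at least 2-fold higher and none was at 0, among them Lyz2 (lysozyme, 442 and 1853 RPKM), F13a1 (25.9 and 262) and Fn1 (11.0 and 401). Mast cell markers summed to 13.2 and 770 RPKM, and none of the 7 listed was at 0 in both libraries. Of 5 tested mast cell genes 4 were at least 2-fold higher, 2 of them (Mcpt4 and Tpsb2) tested only through replicate 2. Of the 3 at 1 RPKM or more in both libraries 2 were higher, beside 4.07% of all such genes. Basophil markers summed to 1006 and 1985 RPKM, with 3 of 4 at least 2-fold higher. Among all genes with a mean of 1 RPKM or more, 5.3% were at least 2-fold higher and 0.734% at least 2-fold lower. Progenitor and primary granule markers summed to 4976 and 3876 RPKM, with none of 8 at 2-fold in either direction. All sums in this paragraph add deposited values, so the length offset described above can change the weight of each gene. Heat shock genes, which encode chaperones, had none of 4 tested at 2-fold in either direction and summed to 2199 and 1551 RPKM. Hspa1a (0.029 and 0.119 RPKM) and Hspa1b (0.382 and 0.447) of that list were too low to be tested. The part of these cell types in the ratios of the family was not tested, and in such bulk libraries fewer cells of a type and less RNA per cell cannot be told apart.

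The genes most like each of the 5 higher members in level and ratio were sought among 135 genes of the lists, by the distance in deposited log2(RPKM + 1) over the 2 libraries. Ier2, an immediate early gene at 23.8 and 79.5 RPKM, was nearest to both Fos (distance 0.43) and Fosl2 (0.16). Cd68, a macrophage lysosomal gene, was nearest to Jun (0.20), Csf1r, the receptor gene of macrophage colony-stimulating factor, to Junb (0.39), and Mef2a to Jund (0.31). The members themselves were not among the 135 genes, and on this scale Fos and Junb differed by 0.05 and 0.14 in the 2 libraries. The distances carry the length offset described above, and 2 libraries give little to tell patterns apart. Length adjustment takes Jun from 42.2 and 98.3 RPKM to 14.6 and 34.0, so the nearest genes could change with corrected lengths, which was not tested.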

How the data were processed

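RNA-seq of 2 libraries of 1 group was used. The authors deposited RPKM values, 1 column per library, assigned to replicates by column name. The submitters' processing notes name Trimmomatic 0.32, TopHat2, HTSeq, edgeR and build mm9; for the annotation, gene lengths and library size, the sources used here give nothing. Of 24015 rows, 27 with date-like names (0.109% of summed RPKM in each library) were left out. Members and lists were chosen with earlier results of these data known. Named genes were all members, the 3 highest genes of each list at 1 RPKM or more in both libraries, the 2 most different in it above a mean floor of 5 RPKM, and the nearest gene of each member with such a mean; some are left out for brevity.

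Whole reads were recovered from the ratio shared by 474 genes with equal reads and a scale supported by 217 GENCODE vM21 transcript lengths, against 66 at the next most frequent scale. Read numbers are the smallest that give a whole length. Ratios used a pseudocount of 1 RPKM and a mean of at least 1 RPKM. Intervals are exact (Clopper-Pearson, or conditional for quotients of ratios), at 95%. Python 3.11.15 and scipy 1.17.1 were used.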

Additional observations from a re-analysis of the deposited data

How the results depend on the processing

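The counts of members at least 2-fold higher (5) and lower (0) were the same with a pseudocount of 0.1 RPKM, no filter on low values, ratios centred on the median of all genes, rescaling without the 10 highest genes, and the members' own GENCODE lengths, the last chosen after seeing the data. With 1 RPKM required in both libraries, also chosen after seeing the data, the counts were 4 and 0. The pseudocount, the filter and the lengths cannot change the sign of a member's ratio, and centring on a median of -0.05 could only raise it. Only the rescaling could have changed a sign, and there the lowest ratio was 0.01, for Fosl1, whose counting interval includes 1-fold. The median log2 ratio lay between 1.83 (a mean in place of the median) and 2.11. The log2 ratio of Fosb, 2.74, was 4.40 with a pseudocount of 0.1 RPKM and 2.16 with own lengths. Members detected numbered 5 without replicate 2 and 6 without replicate 1. The log2 ratio of FOS to JUN sums, -1.19 on deposited values, was -2.27 with own lengths and -2.73 as a difference of mean log2(RPKM + 1), and ranged from -1.72 to -0.67 with a replicate left out. Pairs of members beyond the spread numbered 10 on deposited values, 16 with own lengths and 20 by sign alone. The values with own lengths take the smallest read numbers for Fosl2. Ratios cannot be computed with 1 replicate left out. No paired analysis was possible because there is 1 group. Depth limits Fosl1 and Fosb in replicate 1, with 26 and 16 reads.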

Other observations

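The match of row lengths to neighbouring genes changed along the table. Over 13 row offsets, row lengths lay within 5 bases of a transcript of the gene itself in 4.94% of rows, of the gene 1 row above in 7.94% and of the gene 2 rows above in 14%, against 1.33% to 1.88% at the other offsets. In the first 3000 rows, 166 lengths matched the own gene, 31 the gene above and 18 the gene 2 rows above. In rows 9001 to 12000, the counts were 16, 247 and 62, and in rows 18001 to 21000 they were 36, 30 and 408. Levels of different genes in the deposited table are affected wherever the length is not the gene's own, while plain RPKM ratios of 1 gene between the libraries are not. Log2 ratios of RPKM + 1, the limits of 1 RPKM and the shares over all genes rest on the deposited lengths.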
